A study of Saccharomyces cerevisiae with 6 samples.

Results

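The genes described here recycle, store and ration iron inside the cell: HMX1, CCC1, SMF3, FET5, FTH1, MRS4, TIS11 (also named CTH2), CTH1, AFT1 and AFT2. They are 10 of 5449 genes measured, each with 1 probe set. They were chosen by role with the differences between LoaOOH and methanol on these same arrays already in view, so their values are given as a description and no test of them is offered as evidence. The RNA came from BY4743, a diploid budding yeast (Saccharomyces cerevisiae) strain that carries deletions in LEU2, URA3 and HIS3 in every culture of both groups. Cultures grew from a single colony in minimal medium at 30 °C to an OD600 of 1.0. Then 3 aliquots of 50 mL received LoaOOH (linoleic acid hydroperoxide, an oxidation product of a polyunsaturated fatty acid) at 75 µM. That dose is labelled as arresting growth. Another 3 such aliquots received methanol, the solvent of LoaOOH, in the volume used for LoaOOH. These aliquots, called cultures below, may share a parent culture. All were collected after 1 h, and each was hybridised to its own Affymetrix yeast array, whose deposited RMA values are on the log2 scale. There is 1 dose, 1 time and no untreated culture, so the comparison shows how the messages stood in treated against solvent-treated cells at that time.

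In budding yeast, Aft1 and its relative Aft2 switch on genes of iron uptake and release when iron-sulfur clusters made in mitochondria become scarce. Spare iron is kept in the vacuole, where Ccc1 carries it in, and Smf3 and the pair of Fet5 and Fth1 carry it out. The haem oxygenase Hmx1 frees iron from haem, Mrs4 brings iron into mitochondria, and Tis11 and Cth1 bind AU-rich stretches in messages for iron-using proteins and promote their decay.

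Over the 5498 probe sets tested, Pearson's r was 0.99768 or more within a group and 0.95431 or less between groups. The poly-A spike-in controls, which are bacterial transcripts put into each RNA sample, had a mean of 7.44 ± 0.165 (SD, n = 3) in methanol and 6.93 ± 0.125 in LoaOOH, and 36 of 36 were lower (exact two-sided permutation p = 0.1, the smallest that 3 against 3 arrays allow). Since these controls fell by 0.518 on the log2 scale, scaling to them lifts every difference by that amount and moves the median of all probe sets from -0.03 to 0.48, so directions below are relative to the typical message. Spike-in values are given for the 10 genes, and for other genes where the direction or the call of a named fall turns. Ribosomal RNA probe sets moved with the spike-ins, being lower in 17 of 17 cases and by 0.639 in the mean (exact p = 0.1), while the hybridisation controls, added later, differed by -0.016 with 14 of 27 lower (exact p = 0.8). The part of either in the results was not tested. The 3' minus 5' signal of 7 reference messages, a sign of RNA or labelling quality, moved by between -0.15 and 0.58, and for 5 of the 7 (ACT1, RIP1, SPT15, SRB4 and WBP1) the groups did not overlap (exact p = 0.1 each). Its part in the results was not tested. The strain's deleted URA3 read 3.50 in methanol and 3.37 in LoaOOH, below the brightest negative control (5.146), and LEU2 read 5.39 and 5.64, close to it. HIS3 read 10.99 and 12.42. Whether its probes lie outside the strain's deletion is not given in the sources used here, so HIS3 checks nothing. Among genes for mating, MFA1, MFA2, STE2 and STE3 had means from 6.13 to 8.34, above that control, so the diploid state was not marked by their absence. HO, listed with them as low in a diploid, read 5.68 in methanol and 5.29 in LoaOOH, close to that control.

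Of the 10 genes, 9 had a higher mean in LoaOOH and 1, CCC1, a lower one in the deposited scaling. The groups did not overlap for 8 genes in the upward direction, where 38.1% of all probe sets behaved so, and for 1 in the downward direction, against 43.0%. Limma called 9 of the 10 at an adjusted p under 0.05, 8 higher and 1 lower, where it called 78.7% of all probe sets, 36.8% higher and 41.9% lower. Since these values were known when the genes were named, nothing is read from those counts. A log2 difference of 1 or more was shown by 4 of the 10 genes and by 5.02% of all probe sets. The median log2 difference was 0.80 over the 10 genes and -0.03 over all probe sets. In the spike-in scaling limma called 9 genes higher and 0 lower, against 65.9% and 7.68% of all probe sets. All 10 genes stayed above the brightest negative control on every array, the lowest value being 6.31.

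**Figure D1:**
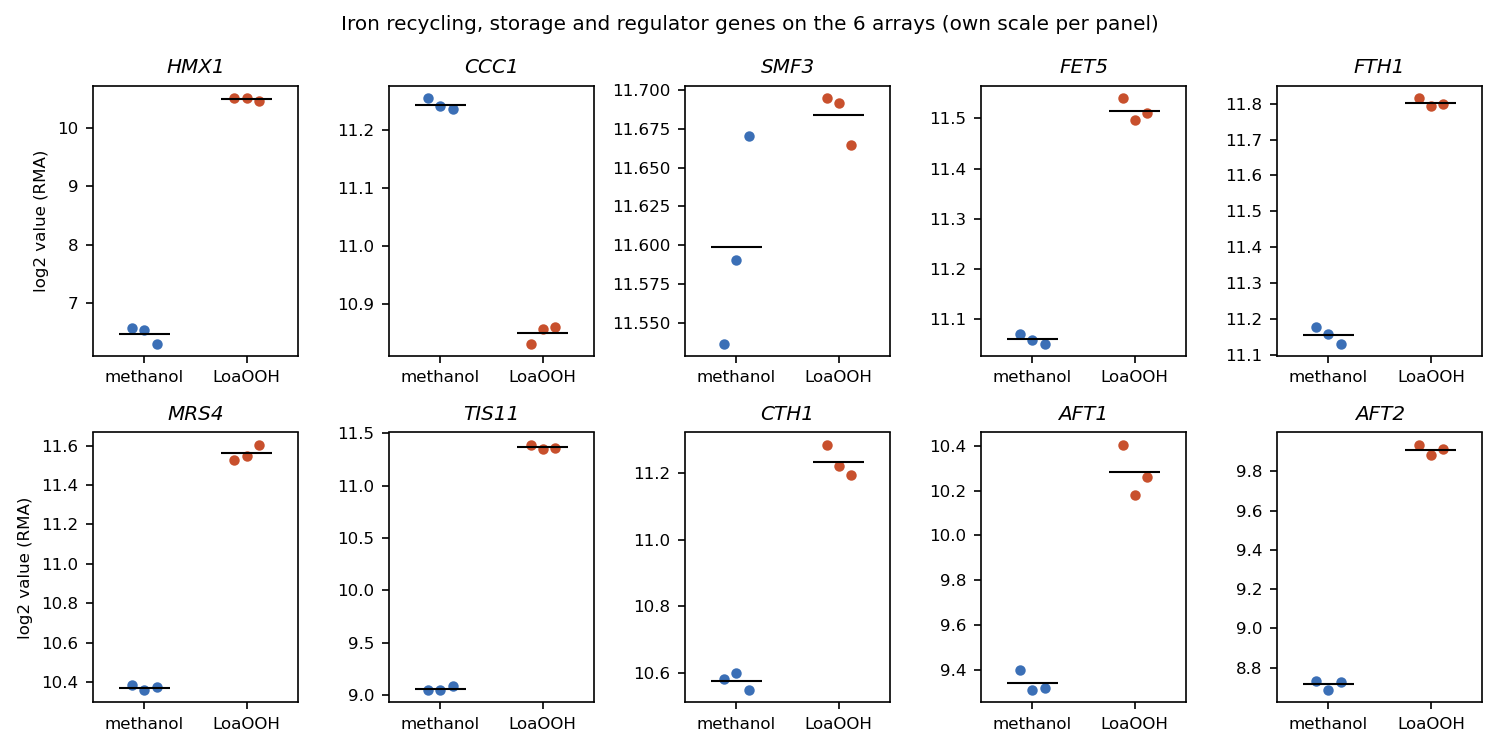
Log2 RMA value of each of the 10 genes on the 3 methanol and the 3 LoaOOH arrays (points; the line is the group mean), with a separate vertical scale in each panel because levels of different probe sets cannot be compared. The groups are apart in every panel but that of SMF3, and in this deposited scaling LoaOOH is the lower group in the panel of CCC1 alone.

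HMX1 (YLR205C), the haem oxygenase that breaks down haem and releases its iron, had the largest difference of the 10. Its log2 value was 6.57, 6.53 and 6.31 in the methanol cultures and 10.50, 10.51 and 10.47 in the LoaOOH cultures. The LoaOOH cultures lay within 0.04 of each other, while the methanol cultures spread over 0.26, and the nearest arrays of the groups stood 3.90 apart. The log2 difference was 4.02 (SE 0.068), a 16.2-fold higher level, and 4.54 in the spike-in scaling. Only 4 of 5498 probe sets had a larger positive difference.

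Haem, the substrate of Hmx1, is made by a pathway with more messages lower than higher in the deposited scaling. Of the 9 genes listed for haem synthesis together with NCP1, the reductase that passes electrons to haem enzymes, 2 rose and 7 fell by limma, against 36.8% and 41.9% of all probe sets (median log2 difference -0.33 against -0.03). HEM12, uroporphyrinogen decarboxylase, fell by 0.89 on the log2 scale (SE 0.043, adjusted p = 1.5e-07) and HEM3, porphobilinogen deaminase, fell by 0.80 (SE 0.049, adjusted p = 6.7e-07). HEM2, porphobilinogen synthase, rose by 0.53 (SE 0.070, adjusted p = 9.34e-05) and HEM13, coproporphyrinogen oxidase, by 0.19 (adjusted p = 0.0195). The call of HEM13 was lost without LoaOOH replicate 3 (adjusted p = 0.0676). NCP1 fell by 0.33 (adjusted p = 0.000319). In the spike-in scaling 2 of the 9 were higher, 2 lower (HEM12 at -0.37 and HEM3 at -0.28) and the others, NCP1 among them (0.19), were not called, against 65.9% higher and 7.68% lower of all.

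The genes of vacuolar iron showed differences of both signs. CCC1 (YLR220W), which carries iron into the vacuole and protects the cell from iron excess, was the lower one. Its log2 value was 11.25, 11.24 and 11.24 in methanol and 10.83, 10.86 and 10.86 in LoaOOH. The 3 arrays of a group agreed within 0.03, and every LoaOOH array lay below every methanol array, by at least 0.37. The log2 difference was -0.39 (SE 0.039), a 1.31-fold lower level. That direction holds relative to the typical message alone, since in the spike-in scaling the difference was 0.13 and was not called.

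FET5 (YFL041W) encodes the multicopper oxidase of the vacuolar membrane and FTH1 (YBR207W) the iron permease that works with it to export iron to the cytosol. FET5 read 11.07, 11.06 and 11.05 in methanol and 11.54, 11.50 and 11.51 in LoaOOH. FTH1 read 11.18, 11.16 and 11.13 in methanol and 11.82, 11.79 and 11.80 in LoaOOH. For each of the pair the LoaOOH arrays were all above the methanol arrays, and the arrays of a group lay close together beside the step between groups. The log2 difference of FET5 was 0.46 (SE 0.040; 0.97 in the spike-in scaling) and that of FTH1 was 0.65 (SE 0.040; 1.17 in the spike-in scaling).

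SMF3 (YLR034C), a metal transporter of the Nramp family on the vacuolar membrane that releases iron, was the gene whose groups overlapped. It read 11.54, 11.59 and 11.67 in methanol and 11.69, 11.69 and 11.66 in LoaOOH. Methanol replicate 3 lay above LoaOOH replicate 3, and the methanol arrays spread more than the LoaOOH arrays. The log2 difference was 0.08 (95% interval -0.02 to 0.19) and 0.60 in the spike-in scaling. Limma did not call it in the deposited scaling, but did so without methanol replicate 3, with median centring, with array weights and in the spike-in scaling.

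MRS4 (YKR052C), a mitochondrial carrier that takes iron into the matrix, read 10.38, 10.36 and 10.37 in methanol and 11.53, 11.55 and 11.61 in LoaOOH. The groups stood 1.15 apart at their nearest arrays, many times the spread within either. The log2 difference was 1.19 (SE 0.042), a 2.28-fold higher level, and 1.71 in the spike-in scaling.

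Relatives of these transporters, which the choice of genes did not name, were set beside them. MRS3, the closest relative of MRS4 and a mitochondrial iron carrier too, read 9.19, 9.16 and 9.21 in methanol and 10.22, 10.15 and 10.16 in LoaOOH, and rose by 0.99 (SE 0.042, adjusted p = 7.42e-08). FET3, the cell-surface oxidase related to FET5, rose by 1.01 (SE 0.055, adjusted p = 3.07e-07), its arrays going from 11.01, 11.11 and 11.07 to 12.17, 12.05 and 12.01. FTR1, the cell-surface permease related to FTH1, differed by 0.16 (SE 0.070, adjusted p = 0.0641), and its groups overlapped. The call of FTR1 depended on the setting, with adjusted p = 0.0175 to 0.0469 under 7 others besides spike-in scaling, among them leaving out methanol replicate 3 or LoaOOH replicate 2. Among the Nramp relatives of SMF3, SMF1 rose by 0.35 (SE 0.044, adjusted p = 7.98e-05) and SMF2 differed by 0.06 (SE 0.042, adjusted p = 0.236). Of these 5 relatives 3 rose, 0 fell and 2 were not called, where 36.8% of all probe sets rose and 41.9% fell. In the spike-in scaling limma called all 5 higher, FTR1 (0.68) and SMF2 (0.58) included, against 65.9% of all probe sets. In the deposited scaling, at the cell surface the oxidase gene rose and the permease gene did not pass the test, while on the vacuole the oxidase gene showed 0.46 and the permease gene 0.65. The differences between these differences were not tested.

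**Figure D2:**
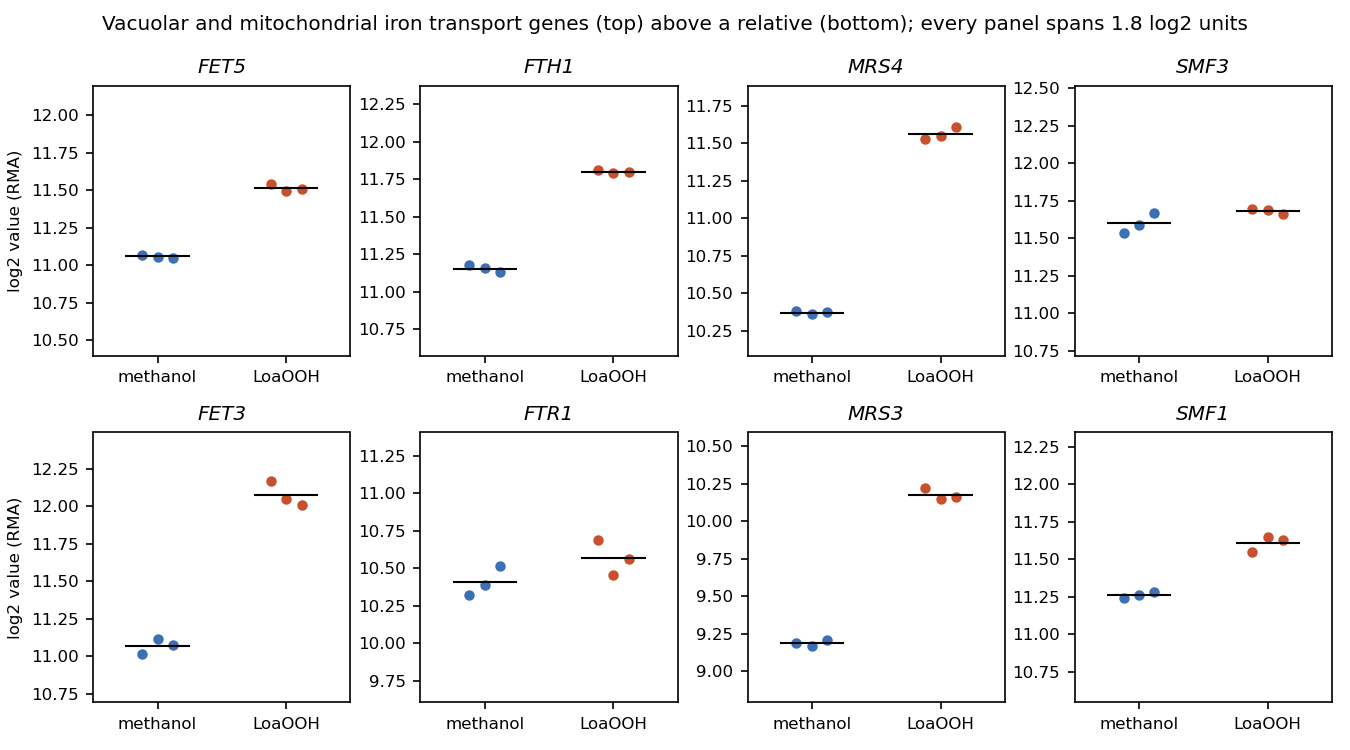
Log2 RMA values on the 3 methanol and 3 LoaOOH arrays (points; line, group mean) for FET5, FTH1, MRS4 and SMF3 in the upper row and for FET3, FTR1, MRS3 and SMF1, a relative of each, in the lower row; each panel spans the same number of log2 units. MRS4 and MRS3 show steps of 1.19 and 0.99, whereas FTR1 and SMF3 have overlapping groups.

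Of the RNA-binding pair, TIS11 (YLR136C), whose product Cth2 marks messages of iron-using proteins for decay when iron is short, had the second largest difference of the 10. It read 9.05, 9.05 and 9.09 in methanol and 11.39, 11.35 and 11.36 in LoaOOH. The 3 arrays of each group lay within 0.04 of each other and the groups were 2.26 apart. The log2 difference was 2.30 (SE 0.040), a 4.92-fold higher level, and 2.82 in the spike-in scaling, and 33 probe sets had a larger positive difference. CTH1 (YDR151C), its relative with the same kind of zinc fingers, read 10.58, 10.60 and 10.55 in methanol and 11.28, 11.22 and 11.19 in LoaOOH. Its groups did not overlap either, with a log2 difference of 0.66 (SE 0.044; 1.17 in the spike-in scaling). The 95% intervals of TIS11 (2.21 to 2.39) and CTH1 (0.56 to 0.76) were apart, which describes these arrays and is no test between the genes.

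Messages reported as Cth2 targets were counted beside the pair. Of 15 measured, 5 rose, 7 fell and 3 were not called by limma, where 36.8% of all probe sets rose and 41.9% fell (median log2 difference -0.09 against -0.03). BIO2, biotin synthase, an iron-sulfur enzyme, fell by 1.58 on the log2 scale (SE 0.050, adjusted p = 1.3e-08), and SDH3, a membrane subunit of succinate dehydrogenase, fell by 0.71 (SE 0.045, adjusted p = 7.98e-07; -0.19 and not called in the spike-in scaling). LEU1, isopropylmalate isomerase of leucine synthesis, rose by 2.48 (SE 0.062, adjusted p = 3.9e-09) and ISA1, an iron-sulfur assembly factor, by 0.61 (SE 0.051, adjusted p = 4.93e-06). Of the other subunits of succinate dehydrogenase, SDH2 (0.25) and SDH4 (0.24) rose and SDH1 (-0.03) was not called in the deposited scaling, and in the spike-in scaling all of SDH1 (0.49), SDH2 (0.77) and SDH4 (0.76) were called higher. ACO1, aconitase (-0.14, adjusted p = 0.0274), and CCP1, cytochrome c peroxidase (-0.14, adjusted p = 0.0288), each lost the call without methanol replicate 1 or 2 or LoaOOH replicate 2 or 3 (adjusted p = 0.0506 to 0.108). Scaled to the spike-ins, both turned and were called higher, ACO1 at 0.38 and CCP1 at 0.37. In that scaling 11 of the 15 were higher and 1, BIO2 (-1.07), lower, against 65.9% and 7.68% of all probe sets.

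The genes of both activators were higher. AFT1 (YGL071W), the main activator of the iron regulon, read 9.40, 9.31 and 9.32 in methanol and 10.40, 10.18 and 10.26 in LoaOOH. The LoaOOH arrays of AFT1 spread over 0.23, the widest within-group spread among the 10 genes in LoaOOH, yet all lay at least 0.78 above the methanol arrays. The log2 difference was 0.94 (SE 0.062), and 1.46 in the spike-in scaling. AFT2 (YPL202C), its relative, read 8.73, 8.68 and 8.73 in methanol and 9.94, 9.88 and 9.91 in LoaOOH. The difference of AFT2 was 1.20 (SE 0.041), a 2.29-fold higher level, and 1.71 in the spike-in scaling, with no overlap. The 95% intervals of AFT1 (0.80 to 1.08) and AFT2 (1.10 to 1.29) did not overlap but lay close. The difference between these genes was not tested.

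A list of 8 genes covered proteins that inactivate Aft1 or carry it into or out of the nucleus, and Yap5 and its target TYW1. Of these, 2 rose, 4 fell and 2 were not called, where 36.8% of all probe sets rose and 41.9% fell. The median log2 difference was -0.12 against -0.03 over all probe sets. YAP5, the activator of CCC1 and other genes under iron excess, read 8.17, 8.07 and 8.03 in methanol and 9.36, 9.33 and 9.44 in LoaOOH and rose by 1.29 (SE 0.053, adjusted p = 6.04e-08), while CCC1 was lower in the deposited scaling. BOL2 (also FRA2), which works with the glutaredoxins Grx3 and Grx4 to inactivate Aft1, rose by 0.50 (SE 0.060, adjusted p = 4.94e-05). GRX3 fell by 0.42 on the log2 scale (SE 0.041, adjusted p = 1.56e-05) and GRX4 fell by 0.30 (SE 0.063, adjusted p = 0.00207), and neither was called in the spike-in scaling (0.10 and 0.22). TYW1, another gene under Yap5, fell by 0.16 (adjusted p = 0.0229), but in the spike-in scaling it was called higher (0.36, adjusted p = 0.0119), and the call of the fall was lost without methanol replicate 1 or 3 or LoaOOH replicate 2 (adjusted p = 0.0531 to 0.0883) and with quantile normalisation (0.115) or median centring (0.057). In the spike-in scaling 6 of the 8 were higher and 0 lower, against 65.9% and 7.68% of all probe sets.

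Genes listed for iron uptake under Aft1 encode proteins that bring iron in from outside or serve those that do. Of 16 measured, 13 rose, 2 fell and 1 was not called, where 36.8% of all probe sets rose and 41.9% fell (median log2 difference 0.77 against -0.03). With spike-in scaling 15 were higher and 0 lower, against 65.9% and 7.68% of all. FRE5, counted as higher in both scalings, had means of 3.46 in methanol and 3.86 in LoaOOH. These lie below the brightest negative control (5.146), so its calls are not read as a change of a message. FIT2, a cell wall protein that retains siderophore iron, rose by 5.57 (SE 0.041, adjusted p = 4.66e-12) and FRE1, a surface ferric reductase, by 2.36 (SE 0.056, adjusted p = 2.96e-09). FIT1, related to FIT2, fell by 0.54 (adjusted p = 0.000647; -0.03 and not called in the spike-in scaling). FRE2 (-0.21, adjusted p = 0.0215) turned to 0.31 in the spike-in scaling and lost its call without methanol replicate 1 or 3 or LoaOOH replicate 3 (adjusted p = 0.0523 to 0.0535), so that 1 gene of this list was then lower.

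**Figure D3:**
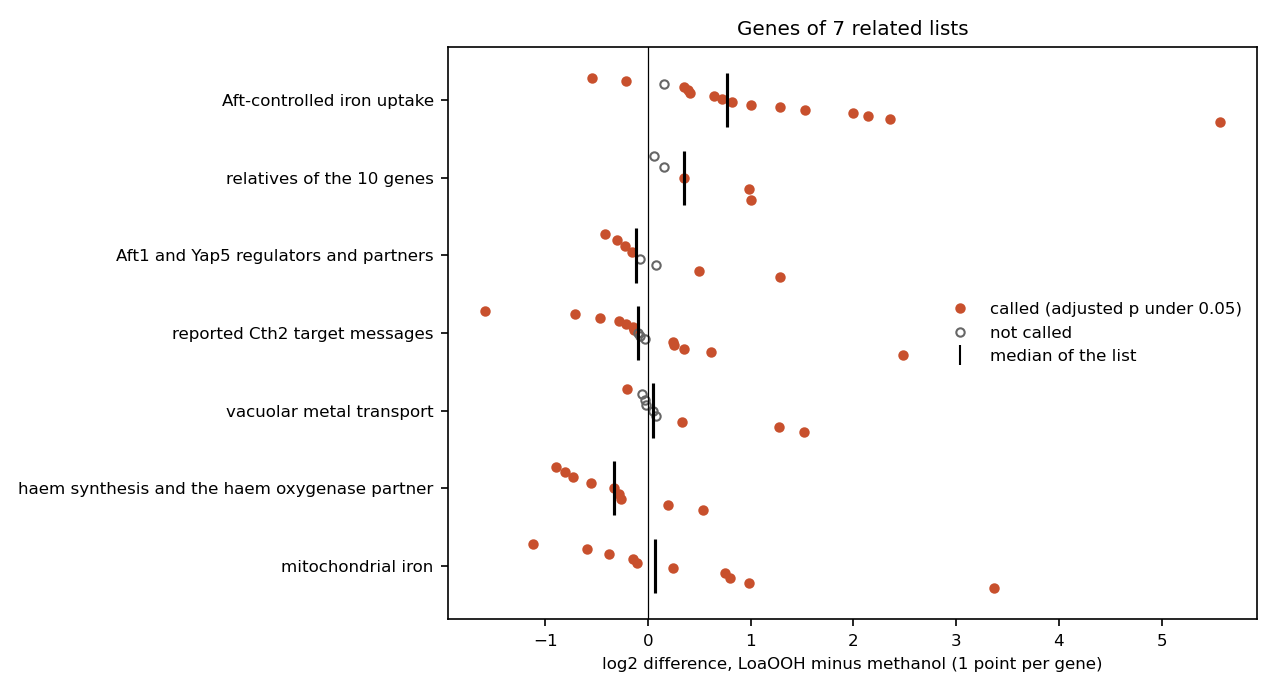
Log2 difference, LoaOOH minus methanol, for each gene of 7 lists (filled, called at an adjusted p under 0.05; open, not called; bar, median of the list). The medians lie between -0.33 for haem synthesis together with NCP1 and 0.77 for Aft-controlled iron uptake. Every list but that of relatives holds called genes on both sides of 0.

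Ordered by difference, the genes ran HMX1, TIS11, AFT2, MRS4, AFT1, CTH1, FTH1, FET5, SMF3 and CCC1. The 95% intervals of neighbours in that order overlapped for AFT2 and MRS4 and for CTH1 and FTH1, and did so for no other neighbours. Intervals that are apart are no test between genes, and none was run. The order is of differences and says nothing of levels, since probe sets of different genes cannot be compared.

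**Figure D4:**
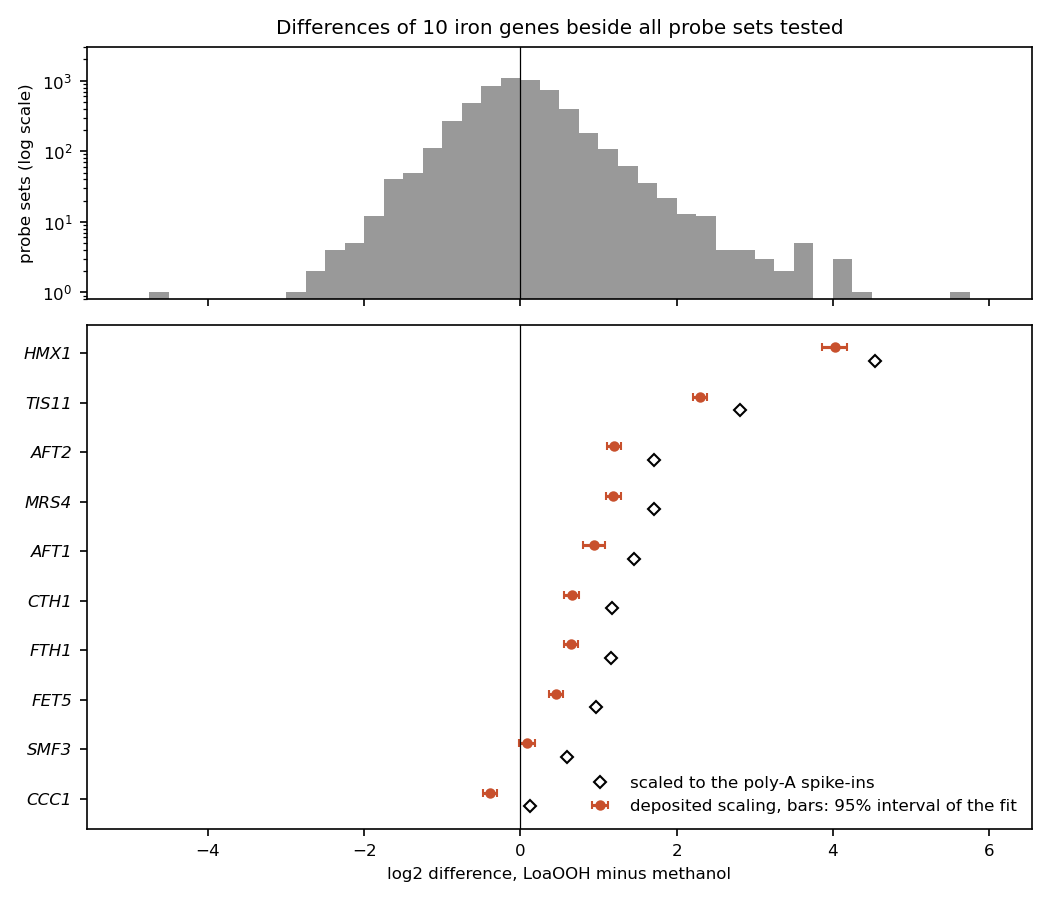
Lower panel, log2 difference of each of the 10 genes with the 95% interval of the fit (filled) and after scaling to the poly-A spike-ins (open diamonds). Upper panel, number of all 5498 probe sets at each difference, on a log axis. HMX1 at 4.02 stands at the far right of all probe sets, and CCC1 is left of 0 in the deposited scaling and right of it, at 0.13, after spike-in scaling.

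The chromosomal position of the genes, which played no role in their choice, was compared with their values through their neighbours. By the gene order of assembly R64, 4 of the 10 genes lie on chromosome XII (HMX1, CCC1, SMF3 and TIS11), and 18 of their 20 direct neighbours had a probe set used here. Among these neighbours 3 were called higher and 5 lower, where 36.8% of all probe sets were called higher and 41.9% lower. Their median log2 difference was -0.0028, with a range from -0.60 to 0.66 in the deposited scaling. ENT2, which is transcribed away from HMX1 on its promoter side, differed by -0.03 (SE 0.050, adjusted p = 0.598), and QRI5 on the other side by 0.08 (adjusted p = 0.138). Scaled to the spike-ins, ENT2 stood at 0.49 and QRI5 at 0.60. RKM5, transcribed away from TIS11 on its promoter side, differed by -0.09 (SE 0.047, adjusted p = 0.112, and 0.43 in the spike-in scaling). SLX4 on the other side of TIS11 fell by 0.44 (adjusted p = 2.43e-05, and 0.08 in the spike-in scaling). GIR2, transcribed away from CTH1 on its promoter side, fell by 0.21 (SE 0.054, adjusted p = 0.00676, and 0.31 in the spike-in scaling). CCC1 lay between MSC3, which fell by 0.60 (SE 0.061, adjusted p = 1.78e-05), and RSA3, a ribosome assembly factor, which fell by 0.56 (SE 0.071, adjusted p = 7.59e-05). In the spike-in scaling these neighbours of CCC1 stood at -0.08 and -0.04. FET5 has an upstream neighbour, YFL041W-A, that rose by 0.66 (adjusted p = 3.48e-06). Whether probes of such close genes share signal was not tested.

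**Figure D5:**
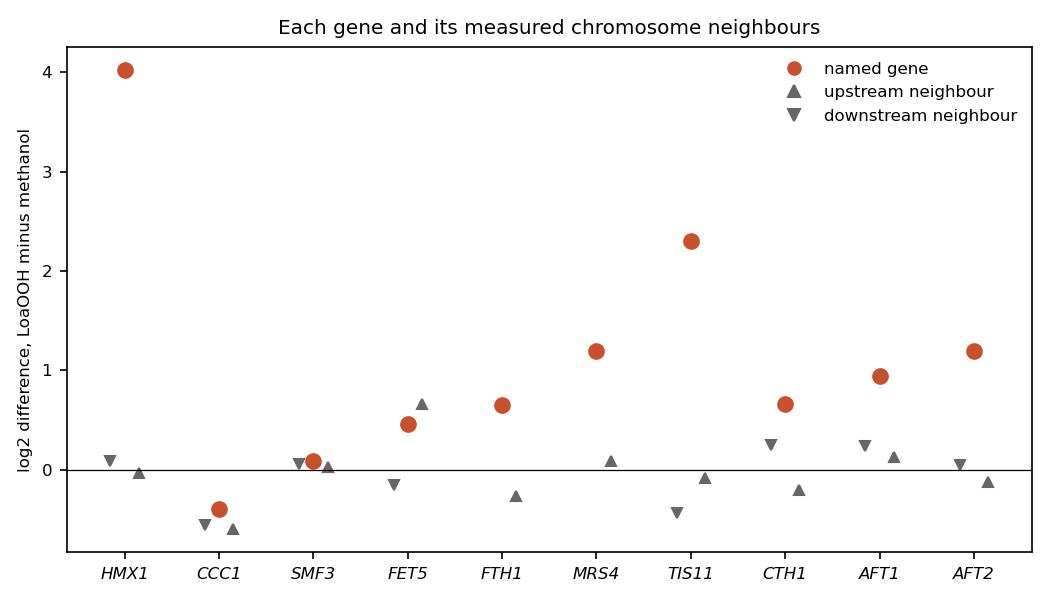
Log2 difference, LoaOOH minus methanol, of each of the 10 genes (large points) and of its measured direct neighbours on the chromosome (triangles pointing up, upstream; pointing down, downstream). The neighbours of HMX1 lie at 0.08 and -0.03 beside its 4.02, while CCC1 at -0.39 (0.13 in the spike-in scaling) lies between neighbours at -0.60 and -0.56.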

How the data were processed

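RNA of 6 cultures was measured on 1 array each. The authors deposited log2 values; RMA and Partek are the tools listed, with no version, per the submitters' processing notes. RMA normalises quantiles, so a change shared by most messages is hidden. Of 5900 probe sets, 184 were controls and 218 lacked a gene in the annotation of the platform; the other 5498 each named 1 gene, all matched to the R64 gene table, which replaced 12 older symbols. No genome build of the array is given in the sources used here, so positions are not given.

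LoaOOH was compared with methanol by limma 3.58.1 in R 4.3.3 (lmFit, eBayes, no covariate, two-sided, Benjamini-Hochberg over 5498 probe sets, called under an adjusted p of 0.05). Errors are the SE of the fit. A gene of a list is given by its brightest probe set. Single values per array were compared by an exact permutation test. The fit was first tested on simulated data. The labels call the replicates biological, and a p-value here reflects only how these samples varied, which may share a parent culture. The number of arrays limits precision (median SE 0.0527). No array duplicated another: at most 0.119% of values were equal on any pair.

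The genes, lists and tests were chosen with earlier results of these data known. Named are all 10 genes, the relatives, up to 2 called genes with the largest rise and fall per list, and the neighbours. The 3 genes nearest in profile to HMX1 and TIS11 are named too. Other list members (FRE5, NCP1, SDH1, SDH2, SDH4, ACO1, CCP1, TYW1, YFH1, MMT1) and the neighbours were picked after their values were seen. Alternatives were quantile normalisation, median centring, scaling to the poly-A spike-ins, a robust variance trend, weighted arrays, dropping the 25% of probe sets that were dimmest or those marked as cross-hybridising, an adjusted p under 0.01, a replicate block and each array left out.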

Additional observations from a re-analysis of the deposited data

How the results depend on the processing

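Over the alternatives other than spike-in scaling, HMX1 ranged from 3.94 to 4.07, TIS11 from 2.29 to 2.33, AFT1 from 0.88 to 0.99 and CCC1 from -0.40 to -0.36 in log2 difference, and no gene of the 10 changed sign. The robust variance trend, the replicate block and the dropping of probe sets cannot change a difference in this fit. These ranges thus come from the normalisations, the array weights and the arrays left out. The only reversal was CCC1 in the spike-in scaling, at 0.13, where 0 of the 10 were called lower. In that scaling the lists had these calls: Aft-controlled uptake 0 lower, relatives 5 higher, Aft1 and Yap5 partners 6 higher and 0 lower, Cth2 targets 11 higher and 1 lower, vacuolar metal transport 9 higher and 0 lower, haem synthesis 2 lower, and mitochondrial iron 1 lower. Of all probe sets, 65.9% were called higher and 7.68% lower there. Quantile normalisation and median centring each left 3 mitochondrial iron genes lower, where 4317 and 4346 of 5498 probe sets were called either way. Without the dimmest 25% of probe sets, 8 of the 10 genes stay, and HMX1 and AFT2 are left out. There 0 uptake genes were lower and 1 partner gene higher, where 3324 of 4123 probe sets were called either way. At an adjusted p under 0.01 there was 1 uptake gene lower, 2 partner genes lower, 1 haem gene higher and 3 mitochondrial iron genes lower. At that threshold 3810 of 5498 probe sets were called either way. The stricter threshold can only lower a count. Dropping the dimmest probe sets takes genes out of a list and also refits the rest. Why counts moved was not tested beyond the uniform shift. With each array left out in turn, uptake genes lower numbered 1 to 2, haem genes higher 1 to 2 and mitochondrial iron genes lower 3 to 5, and probe sets called 4053 to 4279. The replicate block gave 4453 calls against 4327, with 8 of the 10 genes higher and 1 lower as before, and it moved no count by over 1.5 times. Deviations of same-numbered arrays had correlations of 0.310, 0.0491 and 0.258, and those of differently numbered arrays ran from -0.297 to 0.133. The value of 0.0491 lay within that range and the values of 0.310 and 0.258 above it. A pairing of the cultures by number is thus neither shown nor excluded. The fit of array weights stopped before it converged. All calls of small differences are limited by 3 arrays a group.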

Other observations

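Of 9 other transporters and reductases of the vacuolar membrane, listed apart from the 10 genes, limma called 3 higher and 1 lower and did not call 5 in the deposited scaling (median log2 difference 0.05), where 36.8% of all probe sets were higher and 41.9% lower. Scaled to the spike-ins, limma called all 9 higher, against 65.9% of all probe sets. FRE6, the ferric reductase of that membrane, which serves iron export, read 9.71, 9.62 and 9.75 in methanol and 11.18, 11.25 and 11.21 in LoaOOH and rose by 1.52 (SE 0.048, adjusted p = 1.35e-08). COT1, which carries cobalt and zinc into the vacuole, rose by 1.27 (SE 0.046, adjusted p = 2.69e-08). ZRT3, which releases zinc, fell by 0.20 (adjusted p = 0.00619) and was called higher, at 0.32, in the spike-in scaling.

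Of 10 mitochondrial iron genes 5 were higher and 5 lower in the deposited scaling, against 36.8% and 41.9% of all probe sets. Scaled to the spike-ins, 7 were higher and 1 lower, against 65.9% and 7.68%. ISU2, the scaffold on which iron-sulfur clusters are built, read 9.57, 9.62 and 9.58 in methanol and 12.98, 13.01 and 12.90 in LoaOOH and rose by 3.37 (SE 0.045, adjusted p = 2.29e-10), and MRS3, given above, was next. RIM2, a carrier of pyrimidine nucleotides and iron, fell by 1.12 on the log2 scale (SE 0.057, adjusted p = 2.08e-07) and stayed lower, at -0.60, in the spike-in scaling. ATM1, the exporter of the mitochondrial signal that reports on clusters, fell by 0.60 (SE 0.044, adjusted p = 2.13e-06) and was not called in that scaling (-0.08). Of the lower genes YFH1 (adjusted p = 0.0483) lost its call without methanol replicate 1 or 2 or LoaOOH replicate 1 or 2, and MMT1 (adjusted p = 0.0247) without methanol replicate 3 or LoaOOH replicate 2. Without LoaOOH replicate 2, 3 genes were then lower. In the spike-in scaling YFH1 (0.41) and MMT1 (0.37) were called higher.

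The genes nearest to HMX1 over the 6 arrays, by root mean square distance of the log2 values from each gene's methanol mean, were SRX1, sulfiredoxin (0.148), YHK8 (0.170) and JEN1, a lactate permease (0.223), with log2 differences of 4.18, 4.08 and 3.75. Those nearest to TIS11 were YLR108C (0.0369), DIC1, the mitochondrial dicarboxylate carrier (0.0428), and LEE1 (0.0483), with differences of 2.31, 2.32 and 2.26. With 2 groups such nearness is mostly that of the group difference.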
